A study of Arabidopsis thaliana with 36 samples.

Results

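The 10 Arabidopsis genes described here make myo-inositol (MIPS1, MIPS2), oxidise it (MIOX1, MIOX2), or use it to build galactinol (GOLS1, GOLS2, GOLS3, GOLS4) and the sugars raffinose and stachyose (RS5, RS4). They were taken by locus from the raw count tables, and all 10 were present among the 28775 loci of the series. RNA was sequenced from 4 tissues (flowers, rosette buds, sink leaves and source leaves) of 3 genotypes, with 3 biological replicates per genotype and tissue and 36 libraries in all. The genotypes were wild type of the Col-0 ecotype and plants labelled triple and quintuple mutant of the S1 group of bZIP transcription factors, called triple and quintuple mutant below. The labels give no mutated gene, allele or insertion for either mutant, and no plant age other than the start of flowering. All plants grew in long days with 16 h of light and 8 h of dark at 60% humidity and 100 µmol of light per square metre and second. Levels are CPM, counts scaled to a common library size with TMM factors of edgeR, as mean ± SD with n = 3, and values per library stand in the order of the replicate numbers 1, 2 and 3. Differences are log2 folds ± SE from edgeR quasi-likelihood tests on the counts, and a gene is said to have risen or fallen only where the p value, adjusted over all genes tested by Benjamini-Hochberg, was under 0.05. Since the libraries are of whole organs, fewer cells of a type and less RNA per cell cannot be told apart.

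Inositol synthesis starts with inositol-phosphate synthase (MIPS), which turns glucose 6-phosphate into inositol phosphate, and inositol oxygenase (MIOX) opens the inositol ring to give glucuronic acid, a precursor of cell wall sugars and a step of inositol breakdown. Galactinol synthase (GOLS) joins inositol to galactose from UDP-galactose, and raffinose synthase moves that galactose onto sucrose and releases the inositol again. In Arabidopsis GOLS1 and GOLS2 are known for induction by drought, salt and heat, GOLS3 for induction by cold, RS5 as the main raffinose synthase of leaves under stress, and RS4 as the stachyose synthase of seeds. S1 bZIP factors respond to sugar and energy status, several of them are translated less when sucrose is high, and in pairs with C group bZIP factors they bind ACGT cores such as the G-box and the ACTCAT element.

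The bases just upstream of the annotated start sites were searched for the G-box, the ACTCAT element and a few other motifs. A window of 250 bases before each start was read from the TAIR10.1 assembly, and both strands were searched. The G-box, CACGTG, stood in 5 of the 10 windows (GOLS1, GOLS3, MIPS1, MIPS2 and MIOX1). Of the 27443 windows of nuclear protein-coding genes, called all windows below, 6.49% held it. MIPS1 held 3 copies, at 142, 81 and 65 bases before the start. ACTCAT stood in none of the 10 windows and in 12.3% of all windows, and the C-box, GACGTC, in none and in 2.27%. Other ACGT cores were not searched for or marked, and windows such as that of RS4 hold them. The heat shock element searched as GAANNTTC stood in 2 windows (GOLS1 and GOLS2, 9.55% of all windows) and the C-repeat, CCGAC, in 4 (GOLS2, GOLS3, RS5 and MIOX1, 12% of all windows). A match describes letters only, and no match says only that the letters are not in this window. The windows of MIPS1, MIPS2, MIOX1 and RS5, the last without a G-box, are shown because these genes fell in sink leaves of both mutants, and those of MIOX2 and GOLS2 because they moved in opposite directions in the triple mutant. Capitals mark the G-box, the C-repeat (read as GTCGG where it lies on the other strand) and the heat shock element, and MIOX2 had none of them. The windows lie at chr4:18472049-18472298 (MIPS1, minus strand), chr2:9454301-9454550 (MIPS2, minus), chr1:4970312-4970561 (MIOX1, minus), chr5:16161199-16161448 (RS5, plus), chr2:8533780-8534029 (MIOX2, minus) and chr1:21207287-21207536 (GOLS2, plus).
MIPS1: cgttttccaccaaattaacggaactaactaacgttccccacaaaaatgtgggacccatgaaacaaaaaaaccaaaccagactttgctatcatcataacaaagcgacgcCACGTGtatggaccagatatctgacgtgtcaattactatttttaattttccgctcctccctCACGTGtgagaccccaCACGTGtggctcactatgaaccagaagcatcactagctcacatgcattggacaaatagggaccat
MIPS2: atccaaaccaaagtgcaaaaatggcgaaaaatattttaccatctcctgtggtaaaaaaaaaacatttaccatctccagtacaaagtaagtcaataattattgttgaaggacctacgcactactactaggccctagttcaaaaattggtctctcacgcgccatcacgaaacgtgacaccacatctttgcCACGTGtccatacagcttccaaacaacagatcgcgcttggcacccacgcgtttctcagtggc
MIOX1: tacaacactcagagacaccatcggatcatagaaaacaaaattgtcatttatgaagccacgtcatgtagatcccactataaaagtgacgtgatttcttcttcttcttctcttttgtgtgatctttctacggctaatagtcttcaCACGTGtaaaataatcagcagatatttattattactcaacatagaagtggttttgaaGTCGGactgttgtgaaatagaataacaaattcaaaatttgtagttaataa
RS5: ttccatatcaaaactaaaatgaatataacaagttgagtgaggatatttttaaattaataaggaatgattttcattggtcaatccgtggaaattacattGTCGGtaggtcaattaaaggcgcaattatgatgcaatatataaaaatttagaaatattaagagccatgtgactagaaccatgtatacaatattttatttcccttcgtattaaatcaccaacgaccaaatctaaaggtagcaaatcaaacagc
MIOX2: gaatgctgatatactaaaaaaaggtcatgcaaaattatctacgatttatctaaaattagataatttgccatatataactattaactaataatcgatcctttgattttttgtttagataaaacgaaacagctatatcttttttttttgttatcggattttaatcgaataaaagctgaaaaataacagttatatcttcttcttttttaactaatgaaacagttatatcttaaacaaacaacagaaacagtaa
GOLS2: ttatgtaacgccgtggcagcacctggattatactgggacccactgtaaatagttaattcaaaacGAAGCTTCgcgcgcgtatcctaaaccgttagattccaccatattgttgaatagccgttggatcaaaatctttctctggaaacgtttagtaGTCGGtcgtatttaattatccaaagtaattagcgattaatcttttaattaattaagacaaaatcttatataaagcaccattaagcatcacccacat

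**Figure D1:**
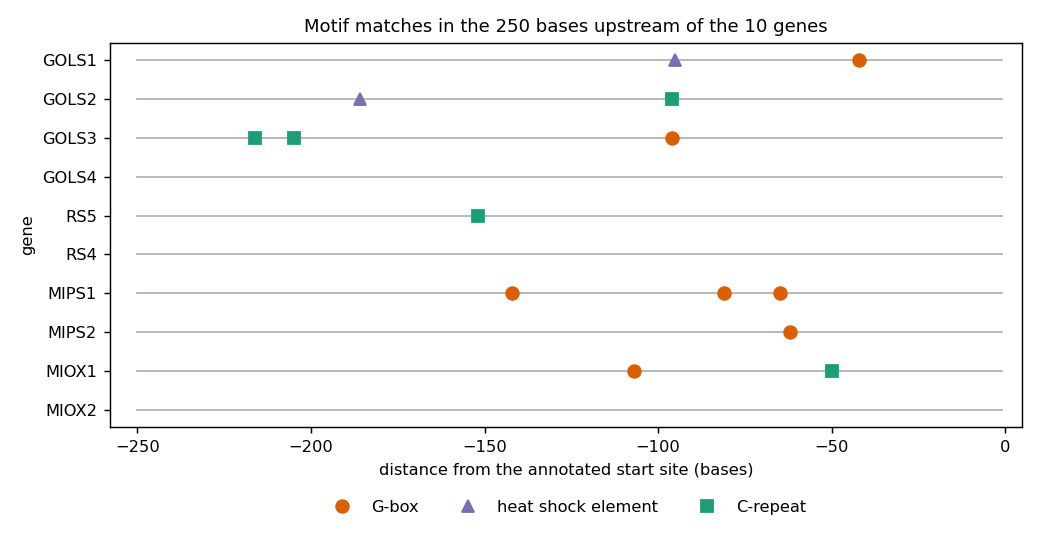
Position of motif matches on either strand in the 250 bases before the annotated start site of each of the 10 genes, in bases from the start. G-boxes (circles) lie in 5 windows, with 3 copies in that of MIPS1, C-repeats (squares) in 4 and heat shock elements (triangles) in 2. GOLS4, RS4 and MIOX2 have no match to these motifs, and other ACGT cores were not searched for.

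In TAIR10.1 the genes are GOLS1 (AT2G47180, chromosome 2, 19368798 to 19370478, minus strand), GOLS2 (AT1G56600, chromosome 1, 21207537 to 21209635, plus), GOLS3 (AT1G09350, chromosome 1, 3019639 to 3021443, plus) and GOLS4 (AT1G60470, chromosome 1, 22278975 to 22280593, minus). RS5 (AT5G40390) lies on chromosome 5 at 16161449 to 16165453, plus strand, and RS4 (AT4G01970) on chromosome 4 at 853922 to 857401, minus strand. MIPS1 (AT4G39800) lies on chromosome 4 at 18469255 to 18472048 and MIPS2 (AT2G22240) on chromosome 2 at 9451605 to 9454300, both on the minus strand. MIOX1 (AT1G14520) lies on chromosome 1 at 4968134 to 4970311 and MIOX2 (AT2G19800) on chromosome 2 at 8530865 to 8533779, also on the minus strand. Exons of GOLS1, GOLS4 and MIPS2 overlap genes on the other strand by 43, 33 and 76 bases. The library kit kept strand, but the sources do not say if the counts did, so reads of those bases are uncertain. GOLS4 shares 3.11% of its 31-base words with GOLS7 (AT1G60450), and MIPS1 shares 1.07% with MIPS2 and MIPS3. MIPS2 shares 0.65% with MIPS1, and the other 7 genes share none.

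Library totals lay between 18158887 and 25124369 counts. The quintuple-mutant replicates differed most from each other, with a chi-square per gene of 24.3 to 193.7 between pairs, against 7.37 to 48.8 in the triple mutant and 5.66 to 26.8 in wild type. In quintuple-mutant rosette buds replicate 1 stood apart (105.3 and 193.7 against 33.0 between the other two), and in quintuple-mutant flowers replicate 3 (65.0 and 77.7 against 24.3), so results that rest on them are given without them as well. Of the S1 bZIP genes, bZIP11 fell in flowers of both mutants (190.7 ± 10.8 CPM in wild type, 109.5 ± 14.1 in the triple and 35.1 ± 18.9 in the quintuple mutant, adjusted p = 0.000358 and 0.00341), as did bZIP44 (adjusted p = 0.000674 and 0.00103). bZIP1 rose in quintuple-mutant flowers (5.85 ± 0.49 to 41.2 ± 18.6 CPM, adjusted p = 0.000996), and counts per locus cannot show whether a transcript comes from a mutated allele. Of the 5 S1 genes tested, 1 rose and 2 fell in flowers of the triple mutant, and 2 rose and 2 fell in those of the quintuple mutant. None passed in rosette buds of either mutant or in leaves of the triple mutant. In the quintuple mutant 1 fell in sink leaves, and 1 rose and 1 fell in source leaves. Of all genes tested, 26.6% passed in flowers, 16.5% in rosette buds, 24.5% in sink and 16.4% in source leaves of the triple mutant. For the quintuple mutant these shares were 38.6%, 2.27%, 24.8% and 18%. The floral genes AP3, PI, AG and SEP3 together reached 122.3 to 308.4 CPM in flowers of the 3 genotypes and at most 14.4 CPM in other tissues, and seed storage genes were at most 0.934 CPM together in any library. Without TMM the median log2 fold of all genes moved from 0.03 to 0.44 in quintuple-mutant sink leaves, from 0.02 to 0.23 in source leaves and from 0.02 to 0.14 in rosette buds. The split of calls over all genes moved with it, in quintuple-mutant sink leaves from 2285 higher and 2484 lower to 7046 and 1050, in source leaves from 1738 and 1673 to 3259 and 1090, and in rosette buds from 348 and 116 to 838 and 141. For the triple mutant it moved in flowers from 2353 and 3358 to 4253 and 2723, in sink leaves from 2336 and 2285 to 3179 and 1589, and in rosette buds from 1525 and 1773 to 2130 and 1227. Between wild-type tissues the median moved most for flowers against sink leaves (0.13 to 0.86) and rosette buds against sink leaves (0.02 to 0.82).

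In wild type several of the genes differed between leaves and flowers, while MIPS2 and GOLS3 were highest in rosette buds. Per kb of exon, MIPS1 was the highest of the 10 in flowers, sink leaves and source leaves, at 85.6, 367.0 and 384.0 CPM per kb, and in rosette buds it stood beside MIPS2, at 95.8 against 99.0. GOLS2 followed in source leaves at 102.0 CPM per kb, but it was at 0.141 in flowers. MIOX2 (11 CPM per kb) and RS4 (2.01) had their highest levels in flowers, and RS4 was at 0.00666 in source leaves. GOLS4 was the lowest in flowers, where its 3 libraries had 0 counts, which allows up to 3 counts over the group. These are levels per length, whereas the values below are not.

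**Figure D2:**
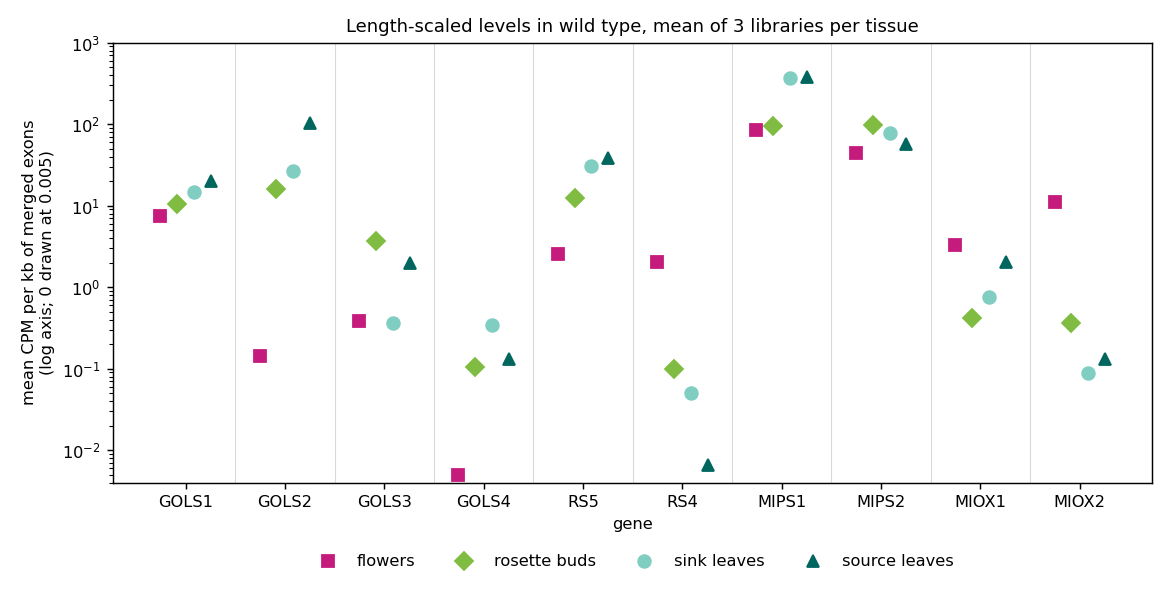
Mean CPM per kb of merged exons (log axis) of the 10 genes in the 4 wild-type tissues, 3 libraries each, with a level of 0 drawn at 0.005. MIPS1 is highest in leaves, GOLS2 rises from 0.141 in flowers to 102.0 in source leaves, and RS4 and MIOX2 run the other way.

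Of the members tested, GOLS2 and RS4 had the widest folds among wild-type tissues. Their order is uncertain, as RS4 had 1 count in source leaves. GOLS2 went from 0.203, 0.220 and 0.185 CPM in flowers to 151.6, 121.1 and 164.7 CPM in source leaves. The groups of flowers, sink leaves and source leaves did not overlap, and GOLS2 was lower in flowers than in source leaves (log2 -9.49 ± 0.40, adjusted p = 7.7e-11) and lower in sink than in source leaves (log2 -1.92 ± 0.24, adjusted p = 0.000101). Rosette buds (23.1 ± 1.5 CPM) and sink leaves (37.7 ± 15.5 CPM) overlapped. The log2 difference of -0.78 passed with TMM (adjusted p = 0.00948), was lost without sink-leaf replicate 1 (log2 -0.51, adjusted p = 0.0649) and became 0.02 without TMM (adjusted p = 0.96). RS5 rose from 7.69 ± 1.01 CPM in flowers over 37.4 ± 7.1 in rosette buds to 92.7 ± 3.4 in sink and 115.3 ± 9.1 in source leaves, where the difference between the 2 leaf groups did not pass (-0.29, adjusted p = 0.124). MIPS1 stood at 179.3 ± 9.4 CPM in flowers and 200.6 ± 36.1 in rosette buds, which overlapped, and at 769.9 ± 76.7 and 805.1 ± 70.8 in sink and source leaves, which overlapped too. The log2 difference of flowers to source leaves was -2.21 ± 0.14 (adjusted p = 3.84e-09).

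MIPS2 had another order, with 225.1 ± 21.3 CPM in rosette buds, 175.1 ± 24.6 in sink leaves, 129.7 ± 8.5 in source leaves and 100.9 ± 6.4 in flowers. All neighbours in that order passed the test with TMM, but the difference between flowers and source leaves, -0.41 with TMM, was 0.11 without it (adjusted p = 0.468). That between rosette buds and sink leaves (0.29) was lost without rosette bud replicate 1 or 3, sink-leaf replicate 2 or 3 or flower replicate 2 (log2 0.19 to 0.29, adjusted p 0.0517 to 0.178). That between sink and source leaves (0.46) was lost without sink-leaf replicate 1 (log2 0.35, adjusted p = 0.0552) and without TMM (0.25, adjusted p = 0.164). MIOX2 was read at 14.9, 19.9 and 18.6 CPM in flowers and at most 0.925 CPM in any wild-type library of the other tissues, which lie far below. MIOX1 was highest in flowers (5.30 ± 1.38 CPM) and source leaves (3.35 ± 1.18), a pair that overlapped, and lower in sink leaves (1.22 ± 0.40) and rosette buds (0.674 ± 0.182). GOLS3 had its highest level in rosette buds (5.71 ± 1.25 CPM), and of its source-leaf libraries (1.08, 1.36 and 6.80 CPM) replicate 3 stood above the others. Without that library the difference between flowers and source leaves moved from -2.38 to -1.03 (adjusted p = 0.0897), and that between sink and source leaves from -2.41 to -1.06 (adjusted p = 0.22), a call also lost without sink-leaf replicate 1 or 2 (log2 -2.37 and -2.00, adjusted p = 0.0759 and 0.0889). GOLS1 ran from 10.4 ± 4.8 CPM in flowers over 14.6 ± 1.8 in rosette buds and 20.7 ± 8.0 in sink leaves to 28.3 ± 2.4 in source leaves. No neighbours in that order passed. Flowers were lower than sink leaves (log2 -1.08 ± 0.31, adjusted p = 0.0067) and source leaves (-1.5 ± 0.31, adjusted p = 0.000562). Rosette buds were lower than source leaves (-0.99 ± 0.30, adjusted p = 0.00955). Without TMM flowers against sink leaves gave -0.33 (adjusted p = 0.315) and rosette buds against source leaves -0.40 (adjusted p = 0.229). RS4 had 446 counts in the flower libraries and 1 in those of source leaves, a ratio of 356.0 per library size with a 95% interval of 63.7 to 14100 for counting error only.

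Of the 9 members tested between wild-type tissues (GOLS4 was too low), 7 differed between flowers and rosette buds, where 55.9% of all genes tested did, and 8 between flowers and sink leaves, where 72.3% did. For flowers and source leaves it was 8 (74.8% of all genes), for rosette buds and sink leaves 6 (64.3%), for rosette buds and source leaves 8 (67.4%) and for sink and source leaves 5 (22.2%).

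Across the 4 tissues the triple mutant gave 13 falls and 2 rises in 30 tests of members, and the quintuple mutant 11 falls and 2 rises in 29 tests, out of 40 possible tests each. The falls were mostly those of MIPS1, MIPS2 and MIOX1 in both mutants and of GOLS2 in the triple mutant. In the triple mutant 1 of 7 tested members passed in flowers and it fell, where 26.6% of all genes tested passed, 11% higher and 15.6% lower. In its rosette buds 5 of 9 passed, 1 risen and 4 fallen (16.5% of all genes, 7.62% higher and 8.86% lower). In its sink leaves it was 6 of 7, 1 risen and 5 fallen (24.5%, 12.4% higher and 12.1% lower), and in its source leaves 3 of 7, all fallen (16.4%, 8.86% higher and 7.51% lower). In the quintuple mutant 4 of 7 passed in flowers, 1 risen and 3 fallen (38.6% of all genes, 19.7% higher and 18.8% lower), and 1 of 8 in rosette buds, which fell (2.27%, 1.7% higher and 0.568% lower). In its sink leaves 4 of 6 fell (24.8%, 11.9% higher and 12.9% lower), which without TMM became 1 fall (MIPS2) and 1 rise (GOLS2), and in its source leaves 4 of 8 passed, 1 risen and 3 fallen (18%, 9.19% higher and 8.85% lower). The median log2 fold of the tested members was -0.13, -0.65, -0.82 and -0.81 in flowers, rosette buds, sink and source leaves of the triple mutant, and -0.95, -1.12, -1.01 and -0.96 in those of the quintuple mutant, while the median over all genes tested lay between -0.01 and 0.03. Members under the filter on low counts were not tested, so these medians describe the members with higher counts in each tissue. The median over all genes depends on TMM, as given above. The members were chosen with earlier results of these data known. Their counts beside the shares of all genes, here and in the other comparisons, are therefore description and no test of the set. Each mutant was set against the same wild-type libraries, so their results are given side by side and not as support for each other.

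**Figure D3:**
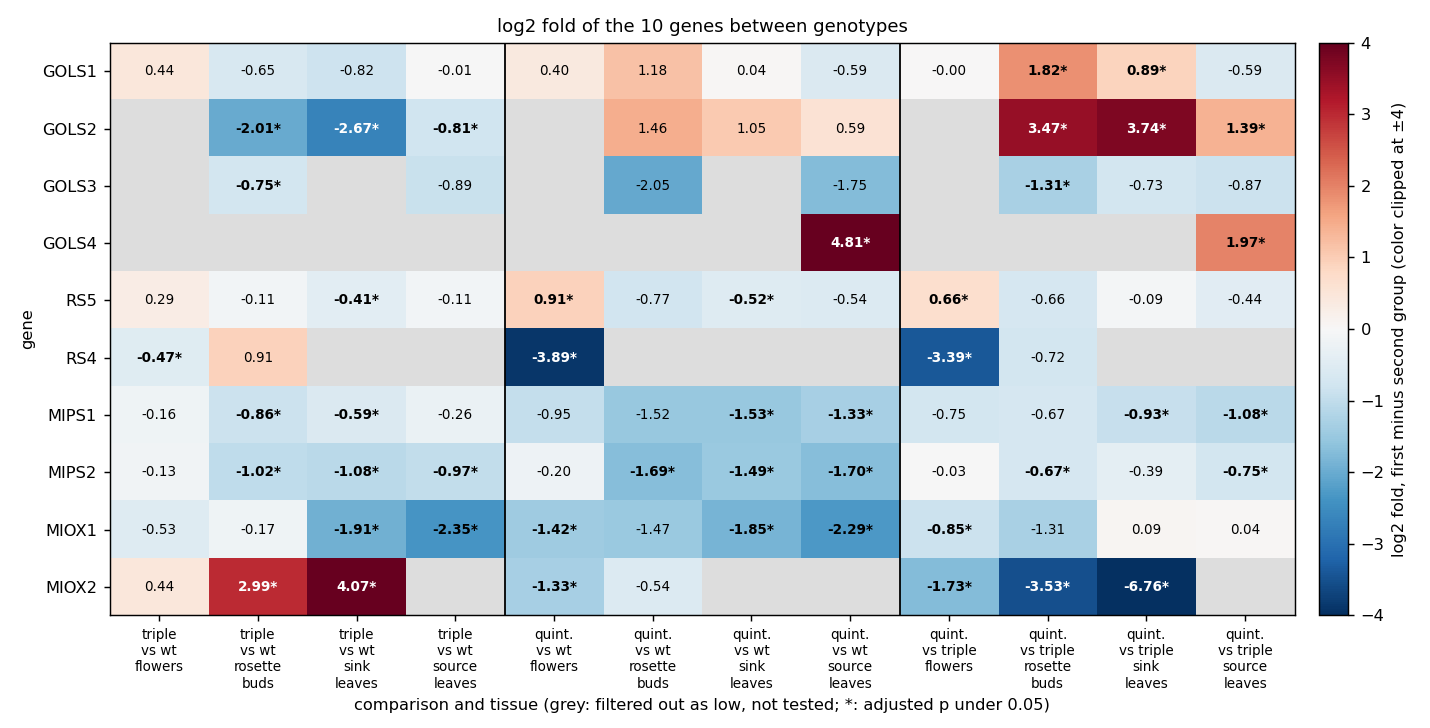
Log2 fold (numbers and color, clipped at 4) of the 10 genes in the triple and quintuple mutant against wild type and in the quintuple against the triple mutant, per tissue, 3 libraries a group. Asterisks mark adjusted p under 0.05 and grey marks genes not tested; MIPS1, MIPS2 and MIOX1 are mostly blue, GOLS2 is blue in the triple mutant and red in the quintuple against the triple mutant, and the -6.76 of MIOX2 rests on 1 count in the quintuple mutant.

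**Figure D4:**
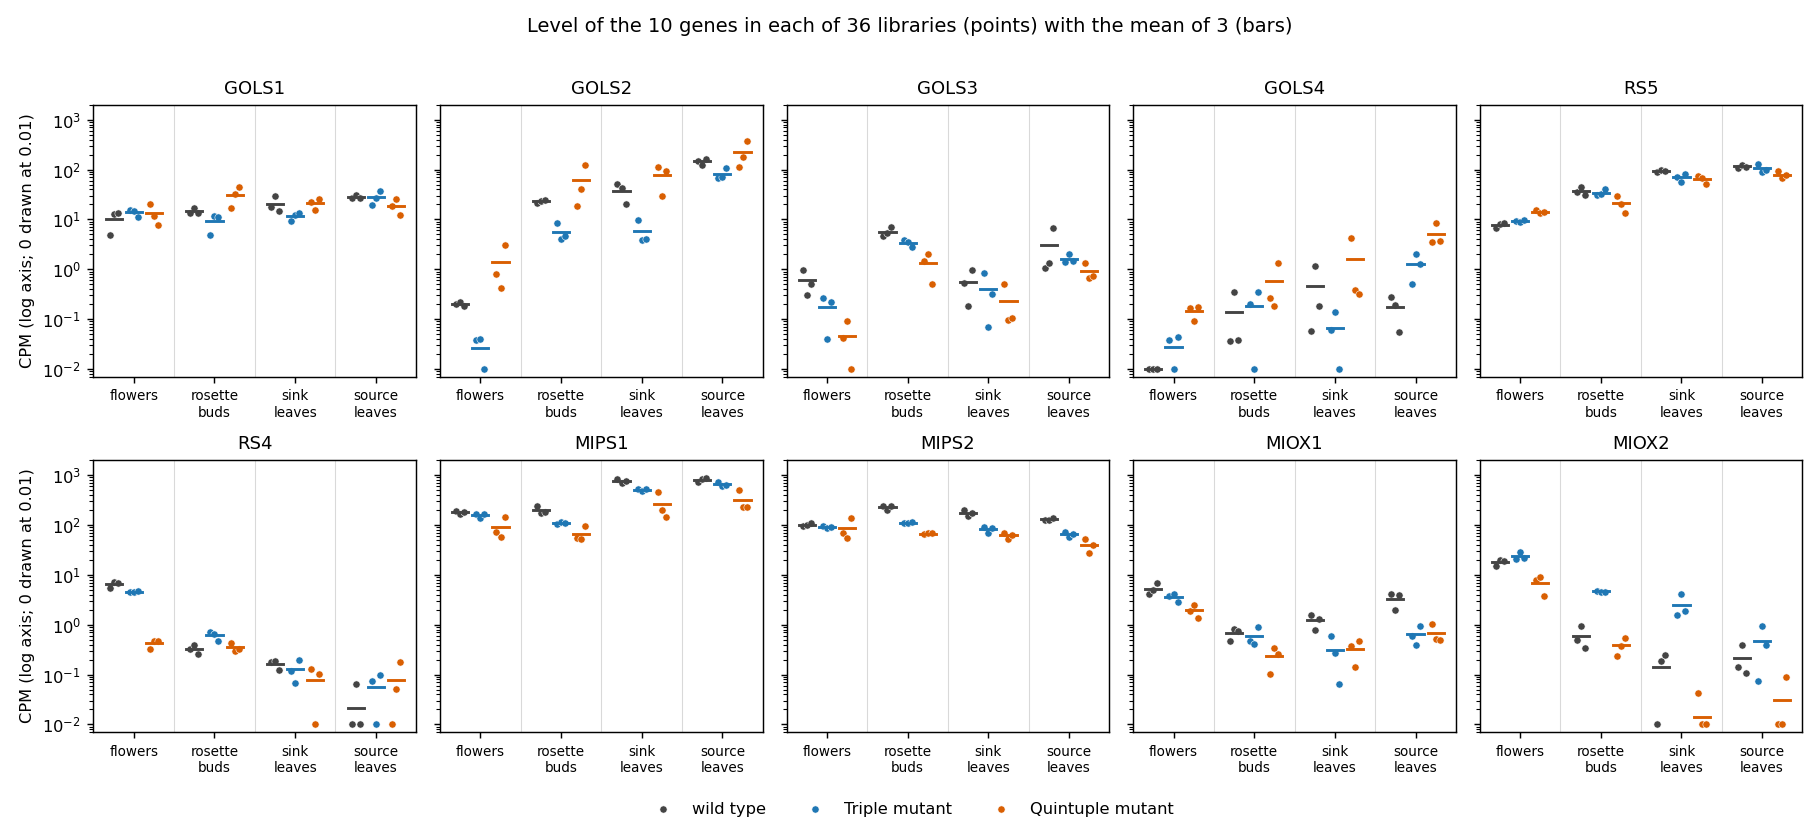
CPM of each of the 36 libraries (points, log axis, 0 drawn at 0.01) and mean of 3 (bars) for the 10 genes in 4 tissues and 3 genotypes. MIOX2 of the triple mutant stands apart in rosette buds and sink leaves, RS4 of the quintuple mutant lies near 0.4 CPM in flowers, and GOLS2 of the triple mutant lies under wild type in all 4 tissues.

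MIPS2, the second inositol-phosphate synthase, fell in rosette buds, sink leaves and source leaves of both mutants. In sink leaves it was read at 199.4, 150.3 and 175.7 CPM in wild type, 91.3, 69.8 and 86.1 in the triple and 69.8, 51.3 and 63.6 in the quintuple mutant. All mutant libraries lay under all wild-type libraries, with log2 folds of -1.08 ± 0.14 (adjusted p = 0.00207) in the triple and -1.49 ± 0.17 (adjusted p = 0.00376) in the quintuple mutant, and both passed under every setting run. In rosette buds the values were 238.4, 200.5 and 236.4 CPM in wild type, 110.7, 107.7 and 112.6 in the triple and 65.2, 68.2 and 68.3 in the quintuple mutant. The 3 groups did not overlap, and the folds were -1.02 ± 0.09 (adjusted p = 0.00197) and -1.69 ± 0.14 (adjusted p = 0.0295), the latter the only member call in quintuple-mutant rosette buds. That call was lost without wild-type replicate 1, 2 or 3 or quintuple-mutant replicate 2 (log2 -1.67, -1.79, -1.67 and -1.70, adjusted p 0.139 to 0.231). In source leaves wild type had 126.7, 123.2 and 139.3 CPM, the triple mutant 73.3, 56.2 and 66.9, and the quintuple mutant 52.4, 28.0 and 39.0. Again no groups overlapped, with folds of -0.97 ± 0.13 (adjusted p = 0.0038) and -1.70 ± 0.24 (adjusted p = 0.0118). The latter was lost without any of the 3 wild-type libraries (log2 -1.65 to -1.74, adjusted p 0.0507 to 0.0647), and the triple-mutant calls in rosette buds and source leaves were lost where all 9 libraries of a tissue shared 1 spread (adjusted p = 0.0697 and 0.0613).

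In flowers MIPS2 stood at 100.9 ± 6.4, 90.7 ± 4.9 and 86.4 ± 43.6 CPM in wild type, triple and quintuple mutant and did not pass (log2 -0.13 and -0.20). Without quintuple-mutant flower replicate 3, which had 136.2 CPM against 67.8 and 55.0 in the others, its fold became -0.66 (adjusted p = 0.00212, edgeR). The quintuple mutant was lower than the triple mutant in MIPS2 of rosette buds (-0.67 ± 0.11, adjusted p = 0.00969) and source leaves (-0.75 ± 0.22, adjusted p = 0.027), and not by the test in sink leaves (-0.39 ± 0.16, adjusted p = 0.0661) and flowers (-0.03). The call in rosette buds was lost without triple-mutant replicate 1 (adjusted p = 0.0535). The call in source leaves was lost without any triple-mutant library or quintuple-mutant replicate 2 or 3 (log2 -0.54 to -0.85, adjusted p 0.0507 to 0.0956), and without TMM (-0.54, adjusted p = 0.0749).

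MIPS1, the synthase with the highest counts of the 10 genes, moved the same way by smaller steps in the triple mutant. Sink leaves had 841.6, 689.0 and 779.0 CPM in wild type, 520.1, 478.2 and 531.5 in the triple and 450.9, 199.9 and 141.9 in the quintuple mutant. All mutant libraries lay below wild type, at -0.59 ± 0.11 (adjusted p = 0.00622) and -1.53 ± 0.39 (adjusted p = 0.0284). In rosette buds it had 241.7, 173.9 and 186.1 CPM in wild type, 103.9, 116.4 and 109.9 in the triple and 54.0, 51.7 and 94.8 in the quintuple mutant. The groups did not overlap, but only the triple mutant passed (-0.86 ± 0.12, adjusted p = 0.00526), as the quintuple mutant reached -1.52 ± 0.29 with adjusted p = 0.0531. Without quintuple-mutant rosette bud replicate 1 or 3 it passed (log2 -1.39 and -1.88, adjusted p = 0.00598 and 0.0454). In source leaves MIPS1 had 727.7, 820.8 and 866.7 CPM in wild type, 725.9, 617.5 and 644.4 in the triple and 495.0, 226.2 and 233.0 in the quintuple mutant. Here only the quintuple mutant passed (-1.33 ± 0.33, adjusted p = 0.0369), against -0.26 ± 0.14 in the triple mutant (adjusted p = 0.237).

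In flowers MIPS1 went from 179.3 ± 9.4 CPM to 157.7 ± 18.1 in the triple mutant and to 71.8, 57.0 and 145.0 CPM in the quintuple mutant, where it just missed the threshold (-0.95 ± 0.32, adjusted p = 0.0517). Without flower replicate 3 of the quintuple mutant the fold was -1.42 (adjusted p = 3.09e-05). The sink-leaf call of the quintuple mutant was lost without any wild-type library or quintuple-mutant replicate 2 (log2 -1.38 to -1.60, adjusted p 0.0676 to 0.086), and without TMM (-1.10, adjusted p = 0.0602). Its source-leaf call was lost without any wild-type library or quintuple-mutant replicate 2 or 3 (log2 -1.12 to -1.40, adjusted p 0.06 to 0.124). The triple-mutant calls in rosette buds and sink leaves were lost in the model of 9 libraries (adjusted p = 0.307 and 0.234). Between the mutants MIPS1 was lower in the quintuple mutant in sink leaves (-0.93 ± 0.33, adjusted p = 0.0401) and source leaves (-1.08 ± 0.29, adjusted p = 0.0217). The former was lost without 8 of the 9 sink-leaf libraries, all but quintuple-mutant replicate 1 (log2 -0.64 to -0.97, adjusted p 0.0542 to 0.118), and without TMM (-0.61, adjusted p = 0.188). The latter was lost without triple-mutant replicate 1 or 2 or quintuple-mutant replicate 2 or 3 (log2 -0.86 to -1.13, adjusted p 0.0557 to 0.0784).

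The leaf marker genes RBCS1A, RCA and CAB1 moved with these falls in the quintuple mutant. In sink leaves 3 of 3 fell, where 12.9% of all genes tested did. The summed level of the 3 was 101400 to 109400 CPM in wild type, 89340 to 101100 in the triple and 38320 to 60530 in the quintuple mutant. In rosette buds none of the 3 passed, with 19510 to 27410 CPM in wild type, 17990 to 21370 in the triple and 3733 to 15510 in the quintuple mutant, which did not overlap wild type. The 4 floral genes, none of which passed there either, summed to 10.9 to 14.4, 6.66 to 12.9 and 0.110 to 5.76 CPM in rosette buds. In source leaves none of the 3 leaf markers passed in either mutant, with 58760 to 82160, 54000 to 93110 and 21770 to 47160 CPM. In triple-mutant sink leaves, where both synthases fell, none of the leaf markers passed, though their summed level lay below wild type with no overlap. The part of the leaf markers and floral genes in the results for MIPS1 and MIPS2 was not tested.

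MIOX1, an inositol oxygenase, fell in leaves of both mutants at low levels. In source leaves it was read at 4.16, 2.00 and 3.89 CPM in wild type, 0.589, 0.391 and 0.940 in the triple and 1.03, 0.513 and 0.500 in the quintuple mutant. No mutant library reached the lowest wild-type library, and the folds were -2.35 ± 0.40 (adjusted p = 0.00819) and -2.29 ± 0.44 (adjusted p = 0.0201). Sink leaves went from 1.58, 0.793 and 1.30 CPM to 0.598, 0.275 and 0.0640 in the triple and 0.381, 0.145 and 0.472 in the quintuple mutant. These levels rest on 61 counts over the wild-type, 15 over the triple-mutant and 21 over the quintuple-mutant libraries. The mutants again lay below wild type, at -1.91 ± 0.60 (adjusted p = 0.0447) and -1.85 ± 0.52 (adjusted p = 0.0374), while the mutants overlapped in both leaf types (log2 0.09 ± 0.71 and 0.04 ± 0.49 between them, adjusted p = 0.926 and 0.954). In flowers MIOX1 had 4.14, 4.93 and 6.83 CPM in wild type, 3.79, 4.18 and 2.84 in the triple and 1.89, 2.53 and 1.37 in the quintuple mutant. Only the quintuple mutant passed (-1.42 ± 0.31, adjusted p = 0.0113), and it was lower than the triple mutant too (-0.85 ± 0.29, adjusted p = 0.0488).

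The fall of MIOX1 in triple-mutant source leaves and that in quintuple-mutant flowers passed under every setting run. The quintuple-mutant source-leaf call was lost without any wild-type library or quintuple-mutant replicate 2 (log2 -2.11 to -2.55, adjusted p 0.0669 to 0.0886). In sink leaves the triple-mutant call was lost without any wild-type library or triple-mutant replicate 2 or 3 (log2 -1.44 to -2.15, adjusted p 0.0607 to 0.133), without TMM (-1.81, adjusted p = 0.0608) and in the model of 9 libraries (-1.94, adjusted p = 0.0731). The quintuple-mutant call there was lost without any wild-type library or quintuple-mutant replicate 1 or 2 (log2 -1.51 to -2.08, adjusted p 0.0573 to 0.135), and without TMM (-1.45, adjusted p = 0.0585). The difference between the mutants in flowers was lost without wild-type replicate 1 or 2, any triple-mutant library or quintuple-mutant replicate 1 or 3 (log2 -0.64 to -1.01, adjusted p 0.0528 to 0.128).

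MIOX2, another inositol oxygenase, rose in the triple mutant in 2 tissues where wild type hardly read it, and fell in the flowers of the quintuple mutant. In rosette buds it had 0.503, 0.925 and 0.336 CPM in wild type, 4.79, 4.57 and 4.59 in the triple and 0.234, 0.374 and 0.551 in the quintuple mutant. The triple-mutant libraries lay close together and far above the rest, with a log2 fold of 2.99 ± 0.31 (adjusted p = 0.00236), or 7.93 times the wild-type level. Sink-leaf levels were 0, 0.183 and 0.247 CPM in wild type, 1.56, 4.06 and 1.86 in the triple mutant and 0.0423, 0 and 0 in the quintuple mutant. The triple mutant again exceeded every wild-type library, at 4.07 ± 0.70 (adjusted p = 0.00479), from 114 counts over its 3 libraries. In source leaves no test was run against wild type, as the triple mutant had 0.0736, 0.949 and 0.396 CPM and wild type 0.140, 0.387 and 0.110. Levels in flowers were 14.9, 19.9 and 18.6 CPM in wild type, 20.4, 28.7 and 21.95 in the triple and 7.76, 9.07 and 3.72 in the quintuple mutant. All triple-mutant flower libraries lay above and all quintuple-mutant libraries below wild type, but only the quintuple mutant passed (-1.33 ± 0.33, adjusted p = 0.0174, against 0.44 ± 0.15, adjusted p = 0.0531).

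Between the mutants MIOX2 was lower in the quintuple mutant in flowers (-1.73 ± 0.30, adjusted p = 0.00237) and rosette buds (-3.53 ± 0.41, adjusted p = 0.00959). In sink leaves it passed as well (adjusted p = 0.000617), with 1 count against 114, a ratio per library size of 154.0 with a 95% interval of 27.2 to 6150 for counting error only. The rise in triple-mutant sink leaves and the fall in quintuple-mutant flowers passed under every setting run. The rise in triple-mutant rosette buds was lost in the model of 9 libraries of that tissue (log2 3.00, adjusted p = 0.107), and the difference between the mutants there without triple-mutant replicate 1 (log2 -3.51, adjusted p = 0.0535). The triple-mutant value in flowers passed with DESeq2 (adjusted p = 0.0232) and without triple-mutant flower replicate 1 (log2 0.54, adjusted p = 0.0318).

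GOLS2, a galactinol synthase, fell in rosette buds and leaves of the triple mutant, passed against wild type in no tissue of the quintuple mutant, and was higher in the quintuple than in the triple mutant in the same 3 tissues. In sink leaves it had 50.3, 42.4 and 20.5 CPM in wild type, 9.81, 3.78 and 4.03 in the triple and 110.0, 29.6 and 93.7 in the quintuple mutant. The triple mutant lay below both other groups, which overlapped, with a fold of -2.67 ± 0.41 against wild type (adjusted p = 0.00338) and of 3.74 ± 0.56 from the triple to the quintuple mutant (adjusted p = 0.000833). Both passed under every setting run. The quintuple mutant against wild type gave 1.05 ± 0.49 (adjusted p = 0.149), which passed without quintuple-mutant replicate 2 (log2 1.43, adjusted p = 0.0346) and without TMM (1.48, adjusted p = 0.0433). In rosette buds it had 21.5, 23.2 and 24.5 CPM in wild type, 8.46, 4.01 and 4.63 in the triple and 18.5, 40.9 and 122.6 in the quintuple mutant. The triple mutant was again the lowest (-2.01 ± 0.24, adjusted p = 0.00354), and the spread of the quintuple mutant covered wild type (1.46 ± 0.64, adjusted p = 0.178). Without quintuple-mutant rosette bud replicate 1, the lowest of its group, the latter passed (log2 1.89, adjusted p = 0.00645). The difference between the mutants was 3.47 ± 0.65 (adjusted p = 0.0114) and was lost without triple-mutant replicate 1 or 3 (log2 3.87 and 3.33, adjusted p = 0.0535 and 0.0549).

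In source leaves GOLS2 had 151.6, 121.1 and 164.7 CPM in wild type, 66.4, 72.3 and 107.8 in the triple and 113.0, 176.1 and 372.2 in the quintuple mutant. The triple mutant fell by a smaller step (-0.81 ± 0.20, adjusted p = 0.0248), and the quintuple mutant overlapped wild type (0.59 ± 0.40, adjusted p = 0.311). That fall was lost without wild-type replicate 1 or 3 or triple-mutant replicate 2 (log2 -0.78, -0.69 and -0.72, adjusted p 0.0744 to 0.113), without TMM (-0.76, adjusted p = 0.0744) and in the model of 9 libraries (-0.79, adjusted p = 0.257). The rosette bud fall was lost in that model too (-2.00, adjusted p = 0.321). The quintuple mutant stood above the triple mutant by 1.39 ± 0.38 (adjusted p = 0.0229), and not by the test without triple-mutant replicate 1 or 2 (log2 1.30 in both, adjusted p = 0.07 and 0.0784). In flowers GOLS2 was too low to test against wild type, with 14 counts over the wild-type, 2 over the triple-mutant and 100 over the quintuple-mutant libraries. The ratio of wild type to the triple mutant was 7.47 per library size with a 95% interval of 1.72 to 67.7, and that of the quintuple to the triple mutant 53.3 with 14.4 to 446.0, both for counting error only.

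Some genes that mark heat, cold and dehydration fell with GOLS2 in the triple mutant, but not alike in every tissue. In sink leaves 2 of 4 tested heat markers fell (HSP90.1 -2.62 ± 0.27, adjusted p = 0.00141, and HSFA2 -2.56 ± 0.43, adjusted p = 0.00434), and the summed level of the list was 60.0 to 98.6 CPM in wild type, 22.7 to 29.4 in the triple and 28.6 to 50.5 in the quintuple mutant. In rosette buds 5 of 8 tested cold and dehydration markers fell, KIN1 by 2.36 ± 0.24 (adjusted p = 0.00236) and RD29A by 1.74 ± 0.17 (adjusted p = 0.00219). Their sum was 235.3 to 271.9 CPM in wild type, 71.4 to 104.8 in the triple and 47.5 to 226.0 in the quintuple mutant. Of 9 clock genes 7 also fell in triple-mutant rosette buds, with sums of 1202 to 1319 CPM in wild type and 1005 to 1103 in the triple mutant, as did 2 of 3 bud markers (BRC1 and STM), with sums of 65.5 to 85.1 and 36.3 to 51.1 CPM. Of the triple mutant's heat markers none of 4 tested passed in rosette buds, and of its cold and dehydration markers 2 of 5 fell in sink leaves. In its source leaves 1 of 4 heat and 1 of 8 cold and dehydration markers fell. In its flowers 1 of 4 and 2 of 6 rose. Of all genes tested in the triple mutant, 12.1% fell in sink leaves, 8.86% in rosette buds and 7.51% in source leaves, and 11% rose in flowers. The part of these genes in the rosette bud and leaf results of the triple mutant was not tested.

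GOLS1 did not pass against wild type in any tissue of either mutant. In source leaves it had 26.7, 31.1 and 27.1 CPM in wild type, 19.7, 26.5 and 36.4 in the triple and 18.9, 25.3 and 12.1 in the quintuple mutant. The quintuple mutant lay under wild type with no overlap and overlapped the triple mutant, and neither difference passed (-0.59 ± 0.26, adjusted p = 0.14, and -0.59 ± 0.27, adjusted p = 0.113). In rosette buds it had 13.5, 16.7 and 13.6 CPM in wild type, 4.91, 11.9 and 10.9 in the triple and 17.1, 31.9 and 45.7 in the quintuple mutant. The 3 groups did not overlap, and the quintuple mutant exceeded the triple mutant by 1.82 ± 0.40 (adjusted p = 0.0161), a call lost without triple-mutant replicate 1 or 3 or quintuple-mutant replicate 2 (log2 1.52, 1.95 and 1.82, adjusted p 0.0535 to 0.0587). Against wild type the quintuple mutant gave 1.18 ± 0.35 (adjusted p = 0.0991) and, without its replicate 1, 1.48 (adjusted p = 0.00095). In sink leaves the values were 17.5, 29.8 and 14.8 CPM in wild type, 9.10, 12.4 and 13.6 in the triple and 21.9, 15.3 and 26.2 in the quintuple mutant. The triple mutant lay just under wild type and missed the threshold (-0.82 ± 0.26, adjusted p = 0.0506), which it passed without wild-type replicate 3 (log2 -1.01, adjusted p = 0.021). The quintuple mutant was higher than the triple mutant (0.89 ± 0.29, adjusted p = 0.0314), and this was lost without any triple-mutant library or quintuple-mutant replicate 1 or 3 (log2 0.69 to 1.00, adjusted p 0.0505 to 0.112).

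GOLS3, the cold-induced galactinol synthase, was lower in rosette buds of both mutants, with 4.67, 5.36 and 7.09 CPM in wild type, 3.91, 3.45 and 2.78 in the triple and 1.47, 1.98 and 0.514 in the quintuple mutant. The groups did not overlap. The triple mutant passed (-0.75 ± 0.21, adjusted p = 0.0429), as did the difference between the mutants (-1.31 ± 0.41, adjusted p = 0.039). The larger step from wild type to the quintuple mutant did not (-2.05 ± 0.47, adjusted p = 0.0665). It passed without quintuple-mutant replicate 1 (log2 -2.13, adjusted p = 0.0112). The triple-mutant call was lost without any of its 6 libraries (log2 -0.55 to -0.88, adjusted p 0.0508 to 0.121), without TMM (-0.69, adjusted p = 0.0659) and in the model of 9 libraries (-0.74, adjusted p = 0.479). The difference between the mutants was lost without 8 of the 9 (all but quintuple-mutant replicate 1, log2 -0.93 to -1.72, adjusted p 0.0516 to 0.102). In flowers GOLS3 had 42 counts in wild type and 3 in the quintuple mutant, a ratio of 14 per library size with a 95% interval of 4.48 to 70.7 for counting error only.

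GOLS4, a galactinol synthase with few counts anywhere, rose in source leaves of the quintuple mutant. It had 0.280, 0.194 and 0.0548 CPM in wild type (6, 3 and 1 counts), 0.515, 2.01 and 1.29 in the triple mutant (7, 36 and 26 counts) and 3.46, 8.42 and 3.78 in the quintuple mutant (67, 164 and 83 counts). The 3 groups did not overlap, and the quintuple mutant exceeded wild type by 4.81 ± 0.60 (adjusted p = 0.0104) and the triple mutant by 1.97 ± 0.51 (adjusted p = 0.0196). The first call was lost without wild-type replicate 2 or 3 (log2 4.85 and 4.40, adjusted p = 0.0646 and 0.0552) and the second without triple-mutant replicate 1 or 3 or quintuple-mutant replicate 2 (log2 1.67, 1.96 and 1.46, adjusted p 0.0517 to 0.0773). In the other tissues GOLS4 was not tested, and its highest library was quintuple-mutant sink leaf replicate 1 at 4.23 CPM.

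RS4, the stachyose synthase, was read almost only in flowers and fell there in both mutants. It had 5.48, 7.04 and 6.97 CPM in wild type, 4.48, 4.50 and 4.80 in the triple and 0.328, 0.468 and 0.471 in the quintuple mutant. The 3 groups did not overlap, and the quintuple mutant was 14.9 times lower than wild type (-3.89 ± 0.25, adjusted p = 0.000191) and lower than the triple mutant by 3.39 ± 0.21 (adjusted p = 2.92e-05). Both passed under every setting run. The smaller fall of the triple mutant (-0.47 ± 0.15, adjusted p = 0.038) was lost without wild-type replicate 2 or 3 or any triple-mutant library (log2 -0.41 to -0.50, adjusted p 0.0714 to 0.115), with DESeq2 (-0.48, adjusted p = 0.0644), without TMM (-0.38, adjusted p = 0.0796) and in the model of 9 libraries (-0.48, adjusted p = 0.13). In rosette buds it stood between 0.261 and 0.718 CPM in all 9 libraries, where the triple mutant did not pass against wild type (0.91 ± 0.37, adjusted p = 0.124) and the quintuple mutant was not tested against it. In leaves no library exceeded 0.192 CPM.

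RS5, the raffinose synthase, rose in flowers of the quintuple mutant and fell slightly in sink leaves of both mutants. In flowers it had 6.58, 7.96 and 8.54 CPM in wild type, 9.43, 8.68 and 9.56 in the triple and 15.2, 13.2 and 13.9 in the quintuple mutant. The groups stood in that order with no overlap, and the quintuple mutant passed against wild type (0.91 ± 0.15, adjusted p = 0.0036) and against the triple mutant (0.66 ± 0.13, adjusted p = 0.0043) under every setting run. The triple mutant did not pass there (0.29 ± 0.13, adjusted p = 0.126). Sink-leaf levels were 89.1, 95.9 and 93.0 CPM in wild type, 71.0, 57.4 and 79.7 in the triple and 73.6, 66.2 and 52.3 in the quintuple mutant. The mutants overlapped each other and lay under wild type, at -0.41 ± 0.13 (adjusted p = 0.0439) and -0.52 ± 0.15 (adjusted p = 0.0449). The first was lost without any wild-type library or triple-mutant replicate 1 or 2 (log2 -0.30 to -0.45, adjusted p 0.0733 to 0.135), and the second without any wild-type library or quintuple-mutant replicate 2 or 3 (log2 -0.40 to -0.56, adjusted p 0.0615 to 0.13). Without TMM they were -0.31 (adjusted p = 0.124) and -0.11 (adjusted p = 0.642), and the first was also lost with no filter (adjusted p = 0.0504) and in the model of 9 libraries (adjusted p = 0.0862). In rosette buds the quintuple mutant had 29.4, 20.4 and 13.5 CPM against 35.3, 45.2 and 31.6 in wild type, at -0.77 ± 0.28 (adjusted p = 0.138), and this passed without its replicate 1 (log2 -1.07, adjusted p = 0.00651). In source leaves it had 92.3, 68.3 and 77.1 CPM against 108.3, 125.6 and 112.1 in wild type, with no overlap (-0.54 ± 0.16, adjusted p = 0.0559), and passed without quintuple-mutant replicate 1 (log2 -0.67, adjusted p = 0.00867).

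In flowers, markers of pollen, tapetum, leaf and floral organs moved with the genotypes. Of all genes tested there, 11% rose and 15.6% fell in the triple mutant, and 19.7% rose and 18.8% fell in the quintuple mutant. The 3 pollen markers AGP6, AGP11 and VGD1 all fell in both mutants, from a summed 4811 to 5138 CPM in wild type to 1719 to 2010 in the triple and 240.5 to 1214 in the quintuple mutant. Of the tapetum markers AMS and LAP5, 1 of 2 rose in the triple and 2 of 2 in the quintuple mutant, from a summed 1.85 to 5.40 CPM over 9.62 to 21.5 to 69.7 to 101.8. The 3 leaf markers rose in both, from 9682 to 10480 CPM over 12090 to 13420 to 13280 to 26430. Of the 4 floral genes 2 rose in the triple mutant (AG and SEP3) and 2 fell in the quintuple mutant (AP3 and SEP3), with sums of 259.0 to 268.4 CPM in wild type, 277.3 to 308.4 in the triple and 122.3 to 208.5 in the quintuple mutant. Their part in the flower results for RS4, RS5, MIOX1 and MIOX2 was not tested.

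The other genes of the pathway were followed in a list of 30, with further galactinol and raffinose synthases, inositol monophosphatases, oxygenases and transporters, and enzymes of galactose release and of UDP-sugars. In flowers 3 of 28 tested rose and 8 fell in the triple mutant, and 3 rose and 9 fell in the quintuple mutant. In rosette buds 2 of 24 rose and 1 fell in the triple mutant and 1 of 23 rose in the quintuple mutant. In sink leaves 2 of 23 rose and 2 fell in the triple mutant, and 2 of 23 rose and 3 fell in the quintuple mutant. In source leaves 1 of 22 rose and 3 fell, and 1 of 23 rose and 4 fell. The shares of all genes tested that passed in flowers, rosette buds, sink and source leaves were 26.6%, 16.5%, 24.5% and 16.4% in the triple mutant. In the quintuple mutant they were 38.6%, 2.27%, 24.8% and 18%. The median log2 fold of the list lay between -0.41 and -0.02 in the 8 comparisons.

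In flowers of both mutants the falls with the smallest p were those of IMPL2, an enzyme of the inositol monophosphatase family that acts in histidine synthesis (-1.62 ± 0.07 in the triple and -2.62 ± 0.36 in the quintuple mutant, adjusted p = 4.8e-07 and 0.0019), and of GOLS9, which RefSeq lists as GATL4, galacturonosyltransferase-like 4 (-1.56 ± 0.09 and -2.67 ± 0.44, adjusted p = 1.67e-06 and 0.00371). MIOX5, an inositol oxygenase known from pollen, fell with them in the triple mutant (-1.49 ± 0.13, adjusted p = 2.58e-05). In the quintuple mutant AGAL1, an alpha-galactosidase, rose (1.21 ± 0.10, adjusted p = 0.000346). In triple-mutant rosette buds DIN10 (1.44 ± 0.16, adjusted p = 0.00292) and RS2 (0.70 ± 0.15, adjusted p = 0.0168), both of the raffinose synthase family, rose, and the inositol transporter INT2 fell (-0.73 ± 0.19, adjusted p = 0.0308). In leaves INT2 went opposite ways: it fell in triple-mutant sink leaves (-1.41 ± 0.38, adjusted p = 0.0264) and rose in quintuple-mutant sink and source leaves (2.75 ± 0.40 and 2.32 ± 0.37, adjusted p = 0.00563 and 0.0142).

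INT1, the inositol transporter of the vacuole, fell in sink and source leaves of the triple mutant (-0.68 ± 0.10 and -0.53 ± 0.13, adjusted p = 0.00309 and 0.0225), while the inositol monophosphatase VTC4 rose in its sink leaves (0.61 ± 0.12, adjusted p = 0.00744). Its source leaves had lower RS2 (-1.24 ± 0.15, adjusted p = 0.003) and UGE5, a UDP-glucose epimerase (-0.67 ± 0.13, adjusted p = 0.0125). In quintuple-mutant sink and source leaves IMPL1, another inositol monophosphatase (-0.78 ± 0.14 and -0.85 ± 0.22, adjusted p = 0.00971 and 0.0399), and the alpha-galactosidase AGAL2 fell (-0.74 ± 0.19 and -0.93 ± 0.21, adjusted p = 0.0289 and 0.0298). In its rosette buds UGE3 rose (1.79 ± 0.33, adjusted p = 0.0497).

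**Figure D5:**
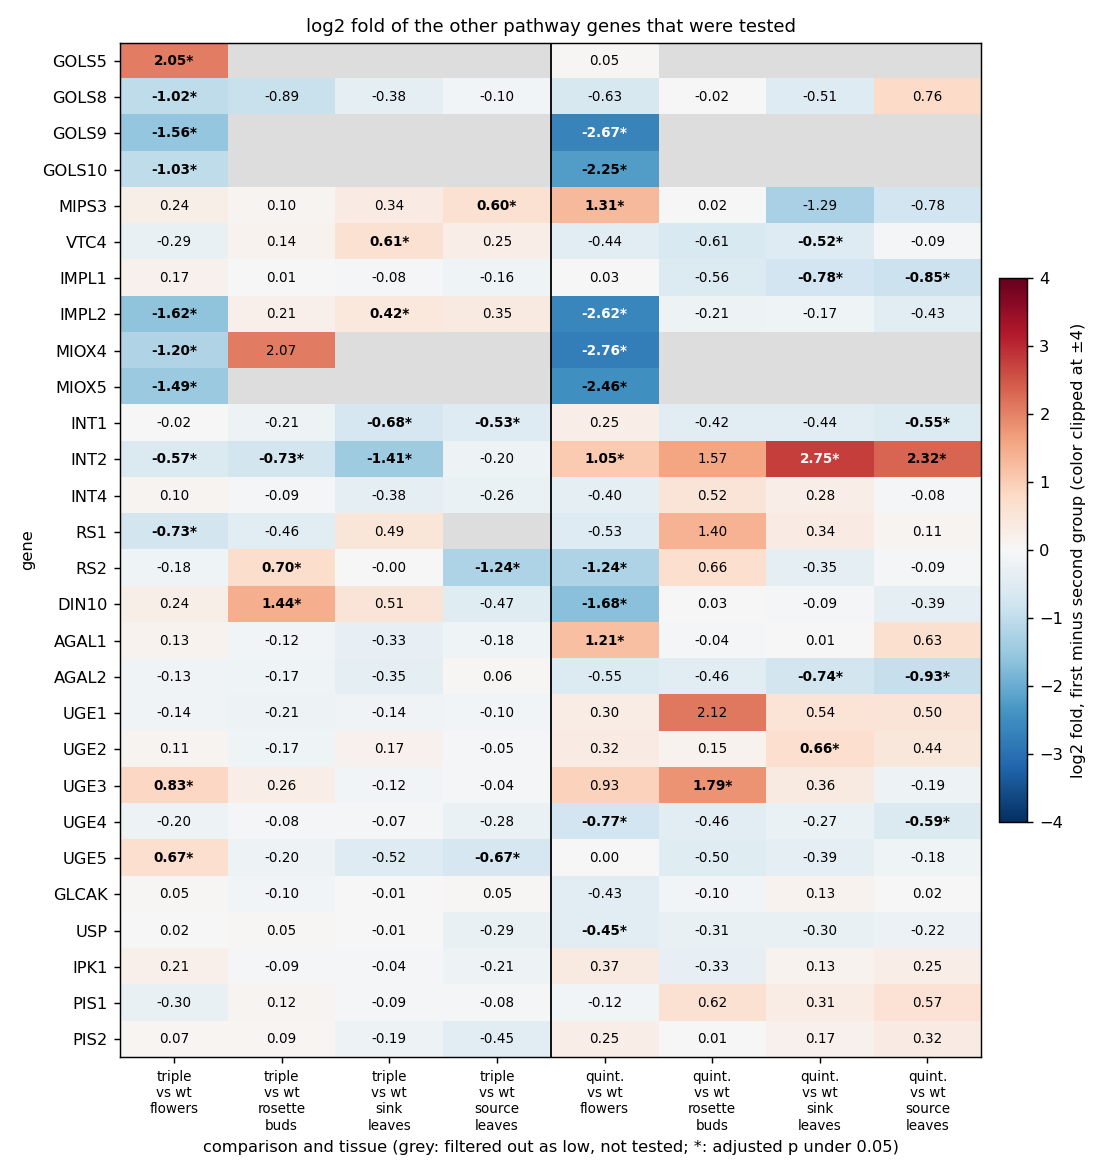
Log2 fold (numbers and color, clipped at 4) of the other pathway genes in each mutant against wild type per tissue, 3 libraries a group; asterisks mark adjusted p under 0.05 and grey marks genes not tested. GOLS9, IMPL2, MIOX4 (-1.20 in the triple and -2.76 in the quintuple mutant) and MIOX5 (-1.49 and -2.46) fall in flowers of both mutants, and INT2 is lower in the triple and higher in the quintuple mutant in sink leaves.

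Between the mutants, 4 of 7 tested members differed in flowers, where 34.1% of all genes tested did, 5 of 9 in rosette buds (38.6% of all genes), 4 of 8 in sink leaves (43.8%) and 4 of 8 in source leaves (34.8%). Whether a genotype difference itself varied with the tissue was tested jointly over 3 interaction terms, in 1 fit per mutant of its 12 libraries and the 12 of wild type. In the triple mutant 5 of 10 members passed, where 16.4% of all genes tested did, namely GOLS2, MIPS1, MIPS2, MIOX1 and MIOX2. In the quintuple mutant 3 of 10 passed, RS5, RS4 and MIPS2, where 23.2% of all genes tested did. MIPS2 had its smallest log2 fold in flowers in both mutants, with the values given above.

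Over the 12 group means on the log2(CPM + 1) scale, the 2 genes with the pattern most like each member were found among all genes, as a description. For GOLS2 they were AT5G21020 and EBP (Pearson r = 0.982 for both), for RS5 ABIL4 (0.987) and AT2G23100 (0.986), and for RS4 AT5G58400 (0.995) and YUC3 (0.993). MIPS1 was nearest to PIP2E (0.989) and AT2G25610 (0.987), MIPS2 to AT2G04852 (0.932) and AT2G04850 (0.927), MIOX1 to RHD4 (0.947) and AT2G25280 (0.939), and MIOX2 to OFP14 (0.968) and NGA3 (0.966). GOLS1 was nearest to AT5G18850 (0.913) and MYB48 (0.910), GOLS3 to POLD4 (0.885) and AT7SL-1 (0.866), and GOLS4 to GSTU10 (0.981) and AT3G13433 (0.961). Among the members themselves GOLS2 and MIOX2 ran opposite over the groups (r = -0.96), and RS4 and MIOX2 ran together (r = 0.87), over points that share tissues and libraries.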

How the data were processed

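Poly-A RNA was sequenced in 36 stranded libraries, each made from 500 ng of RNA, per the labels' protocols. The authors deposited raw counts per locus in 8 tables, 1 per mutant and tissue, each holding wild type too; all columns matched a sample. Per the submitters' processing notes, which give no roles, the build was TAIR10 and the tools included edgeR, DESeq2, SAMtools 0.1.18, R 3.5.1 and Salmon 0.7.2. Library totals of 18158887 to 25124369 counts set the precision, and intervals and the limit of 3 counts behind a count of 0 cover counting error only.

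Counts were tested as deposited with edgeR 4.0.16 (R 4.3.3, quasi-likelihood F test, TMM, filterByExpr, Benjamini-Hochberg over all genes tested, adjusted p under 0.05). Fits of a mutant against wild type held 6 libraries, those between the mutants the 9 of a tissue, those of wild-type tissues 12, and those of genotype by tissue 24. Replicates are labelled as biological, and p-values measure the spread between these samples. The test was tried first on simulated data with the same spread for every gene and group. That trial does not cover the wider spread of the quintuple-mutant replicates or the dependence on TMM. Alternatives were DESeq2 1.42.0, its size factors, library totals without TMM (chosen after seeing the data), no filter, no organelle loci, a replicate block, the 9-library model and each library left out.

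The members and all gene lists were chosen with earlier results of these data known. All 10 members were named, up to 3 pathway genes per comparison by smallest p past the threshold, and the S1 bZIP and marker lists. AGAL3 and ATA9 were dropped because RefSeq does not give those names to the listed loci. Names, gene models and the windows of 250 bases came from RefSeq's TAIR10.1, which named 28009 of the 28775 loci; lengths for CPM per kb are merged exons.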

Additional observations from a re-analysis of the deposited data

Results flagged for a closer look

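For 8 results the difference between mutant and wild type itself varied among the 4 tissues, by the joint test of the genotype by tissue terms (edgeR, adjusted over all genes tested). In the triple mutant, where 16.4% of all genes tested passed, these were MIOX2 (adjusted p = 0.0014), MIPS2 (0.00159), GOLS2 (0.0227), MIPS1 (0.0237) and MIOX1 (0.0343). MIOX2 rose by 2.99 and 4.07 on the log2 scale in rosette buds and sink leaves against 0.44 in flowers, and MIPS2 was at -0.13 in flowers against -0.97 to -1.08 elsewhere. Over the 3 tissues where it was tested, GOLS2 ranged from -0.81 in source leaves to -2.67 in sink leaves; in flowers, which the joint test includes, it had 2 counts against 14 of wild type, a ratio of 7.47 with a 95% interval of 1.72 to 67.7. MIPS1 from -0.16 in flowers to -0.86 in rosette buds, and MIOX1 from -0.17 in rosette buds to -2.35 in source leaves.

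In the quintuple mutant, where 23.2% of all genes tested passed, they were RS4 (adjusted p = 0.000722), RS5 (0.0016) and MIPS2 (0.00881). RS4 was at -3.89 in flowers and was not tested against wild type in the other tissues. In sink and source leaves, which the joint test includes, it had 8 and 1 counts in wild type and 5 and 5 in the quintuple mutant. RS5 was at 0.91 in flowers against -0.52 to -0.77 in the other tissues, and MIPS2 at -0.20 in flowers against -1.49 to -1.70.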

How the results depend on the processing

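Of 145 tested values of members, 87 passed, and 44 of these passed in every setting run, while 42 were lost in at least 1 setting and 2 changed sign in at least 1. The cause of these changes was not tested. Without TMM the number of members passing was 2 in quintuple-mutant rosette buds, 2 in its sink leaves (1 higher, 1 lower) and 2 in triple-mutant flowers (RS5 and MIOX2, both higher, with RS4 lost). With no filter it was 8 in quintuple-mutant flowers, 2 in its rosette buds and 2 in triple-mutant flowers, and with DESeq2 it was 4 in quintuple-mutant rosette buds. With all 9 libraries of a tissue in 1 model it was 3 in quintuple-mutant rosette buds and, in the triple mutant, 0 in both flowers and rosette buds, against 3 for its sink leaves and 1 for its source leaves. In that model edgeR called 0 genes of all in triple-mutant rosette buds, with 2394 at an unadjusted p under 0.05, against 3298 with 6 libraries.

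Within tissues the replicate numbers showed no steady pairing of mutant with wild-type libraries: in 0 of 8 comparisons was every same-numbered pair correlated above 0.1. Of 24 pairs, 9 correlated best with their own number, among them each pair of triple-mutant sink leaves (r = 0.211, 0.083 and 0.195). Whether libraries of the same number share plants across tissues was not checked, and the main fits over tissues treat them as independent. With the replicate block the members passing were 2 in quintuple-mutant sink leaves (MIOX1 and RS5 lost), 0 in its source leaves, 2 in triple-mutant flowers and 3 in the tissue test of the triple mutant; over all genes the block called 25 in quintuple-mutant source leaves against 3411 without it.

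Leaving out 1 library gave 4 to 7 members in quintuple-mutant flowers, 0 to 6 in its rosette buds, 1 to 3 in its sink leaves, 0 to 5 in its source leaves and 0 to 1 in triple-mutant flowers. Between the mutants it gave 0 to 6 in rosette buds, 2 to 4 in sink leaves and 0 to 5 in source leaves. Between wild-type sink and source leaves it gave 2 to 5, and in the tissue test of the triple mutant 3 to 6. For these and the settings above, calls over all genes are not given here except where stated. The counts of members therefore cannot tell a change of the members from a change of calls over all genes.

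Sign changes of the log2 difference without TMM were 0.04 for GOLS1 in triple-mutant source leaves (0.0 in the model of 9 libraries), 0.2 for RS5 between the mutants in sink leaves, 0.11 for MIPS2 in wild-type flowers against source leaves, and 0.23 for GOLS1 and 0.02 for GOLS2 in wild-type rosette buds against sink leaves. Without 1 library the ranges that crossed 0 were, for the quintuple mutant, -0.15 to 0.69 (GOLS1, flowers), -0.66 to 0.03 (MIPS2, flowers), -0.16 to 0.4 (GOLS1, sink leaves) and -0.01 to 0.91 (GOLS2, source leaves). For the triple mutant they were -0.22 to 0.06 (RS5) and -0.59 to 0.04 (MIOX1) in rosette buds, and -0.27 to 0.17 (GOLS1) and -1.31 to 0.48 (GOLS3) in source leaves. Between the mutants they were -0.49 to 0.29 (GOLS1) and -0.49 to 0.2 (MIPS2) in flowers, -1.93 to 0.31 (GOLS3), -0.2 to 0.03 (RS5) and -0.39 to 0.97 (MIOX1) in sink leaves, and -0.4 to 0.45 (MIOX1) in source leaves. Between wild-type tissues they were -0.54 to 0.67 (GOLS3, flowers against sink leaves), and -0.11 to 0.04 (MIPS1) and -1.08 to 0.18 (MIOX2) for sink against source leaves. Depth limits GOLS4, RS4 and MIOX2 outside flowers, GOLS3 in flowers and sink leaves, and MIOX1 in rosette buds and sink leaves, where few counts were read.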
